A study of Mus musculus with 24 samples.

Results

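The effector genes of brown fat thermogenesis, Ucp1, Cidea, Dio2, Elovl3, Cox7a1 and Cox8b, were followed through the differentiation of mouse fat cells with and without epigallocatechin gallate (EGCG). They were chosen by name as the usual transcript readouts of the brown phenotype, with earlier results of these data known. Their symbols were matched to the Ensembl gene identifiers of the deposited tables. All 6 were found, among 37310 genes in all.

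Brown and beige adipocytes oxidise fuel to make heat. Ucp1 is the carrier of the inner mitochondrial membrane that lets protons return without making ATP, and it is the defining protein of these cells. Dio2 converts the prohormone thyroxine to active triiodothyronine (T3) inside the cell, Elovl3 elongates saturated and monounsaturated very long chain fatty acids, and Cidea is a lipid droplet protein. Cox7a1 and Cox8b are the heart and muscle type forms of cytochrome c oxidase subunits, which brown fat shares with striated muscle, whereas most tissues use Cox7a2 and Cox8a. In brown fat several of these genes respond to catecholamines acting through cyclic AMP and to T3, and several are switched on late in differentiation.

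The libraries came from C57BL/6 mice aged 6 weeks, with no transgene or mutation in any group. Stromal vascular cells, a mixed fraction that holds the adipocyte precursors, had been taken from inguinal white adipose tissue (WAT) or interscapular brown adipose tissue (BAT). They were grown to near confluence, kept for 4 days in an induction medium with insulin, dexamethasone and isobutylmethylxanthine (an inhibitor of cyclic AMP breakdown), and then for 4 days in a medium with insulin and T3. The medium held EGCG, a catechin of green tea, or DMSO alone as the control, and RNA was collected on day 4 or day 8. Depot, day and treatment crossed to make 8 groups, each with 3 libraries (replicates 1 to 3). The labels give neither the dose of EGCG nor the number of mice, and they do not say whether the replicates were separate isolations, so that p-values measure the spread between these libraries, which may be technical. In such bulk samples, fewer cells of a type and less RNA per cell cannot be told apart.

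Values are FPKM, reads scaled by the length of the gene and by the library's reads on genes. Levels can be compared between genes only roughly, because each length is that of the longest transcript. The libraries of replicates 1 and 2 had between 39452696 and 52893848 reads on genes, and those of replicate 3, from a separate table, between 16392420 and 41675643. Tests used replicates 1 and 2. In WAT day 8 EGCG replicate 3, the 5 most abundant genes took 61.0% of the reads, against 3.64% to 10.5% in the other libraries, which lowers the FPKM of all its other genes. The depot labels held: Zic1, a regulator of the brown depot, was between 3.57 and 11.1 FPKM in BAT libraries and at most 0.163 FPKM in WAT libraries, and Hoxc10, a posterior homeobox gene of the inguinal depot, was at most 0.121 FPKM in BAT libraries and at least 5.62 FPKM in WAT libraries. The floor of detection in a library was set at 3 reads, which came to 0.0345 to 0.111 FPKM for Ucp1, 0.0487 to 0.157 for Cidea, 0.0302 to 0.0973 for Elovl3, 0.00976 to 0.0315 for Dio2, 0.156 to 0.503 for Cox7a1 and 0.157 to 0.506 for Cox8b.

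In the build mm9 (NCBIM37), Ucp1 (ENSMUSG00000031710.3) lies at chr8:85814247-85822355 on the plus strand, and Dio2 (ENSMUSG00000007682.5) at chr12:91962994-91976878 on the minus strand. Elovl3 (ENSMUSG00000038754.3) lies at chr19:46206387-46210184 on the plus strand. Cox7a1 (ENSMUSG00000074218.2) and Cox8b (ENSMUSG00000025488.8) are both on chromosome 7, at chr7:30969190-30971047 on the plus strand and chr7:148084842-148086345 on the minus strand. Genes on the opposite strand overlap Dio2 (Gm16738, over 238 bases) and Elovl3 (Pitx3, over 10 bases), and they reached at most 0.0587 and 0.389 FPKM. The sources used here do not say whether counting used the strand. No gene overlaps Ucp1, Cox7a1 or Cox8b.

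The 250 bases before the annotated start of 3 of the genes are given here, because Ucp1, Cox7a1 and Cox8b reached their highest level in the same group. Cidea also peaked in that group, and its window is not reported here. Capitals mark matches to AGGTCA (a nuclear receptor half-site), TGACG (the core of the cyclic AMP element) and CCAAT (read as ATTGG on the strand shown), searched with TATAAA on both strands. No match to one of these overlaps another in the windows shown.
Ucp1, chr8:85813997-85814246, plus strand: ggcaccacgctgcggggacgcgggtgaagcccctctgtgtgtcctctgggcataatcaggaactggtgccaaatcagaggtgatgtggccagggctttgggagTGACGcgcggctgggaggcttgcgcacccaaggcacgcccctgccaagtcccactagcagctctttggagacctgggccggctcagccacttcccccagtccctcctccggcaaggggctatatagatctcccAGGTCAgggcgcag
Cox7a1, chr7:30968940-30969189, plus strand: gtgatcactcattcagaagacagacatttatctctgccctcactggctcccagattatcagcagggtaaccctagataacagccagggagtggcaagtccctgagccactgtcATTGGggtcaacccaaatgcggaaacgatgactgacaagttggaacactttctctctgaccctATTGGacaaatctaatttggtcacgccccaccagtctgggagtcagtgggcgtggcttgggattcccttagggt
Cox8b, chr7:148086346-148086595, minus strand: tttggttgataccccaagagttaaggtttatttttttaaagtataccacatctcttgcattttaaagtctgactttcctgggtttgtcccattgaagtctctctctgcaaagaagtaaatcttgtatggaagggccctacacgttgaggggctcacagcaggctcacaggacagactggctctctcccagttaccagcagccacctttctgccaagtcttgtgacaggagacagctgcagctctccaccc

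The Ucp1 window held AGGTCA 14 to 9 bases before the start and TGACG 147 to 143 bases before it. Over 22375 promoter windows of the same length, 12.6% held AGGTCA, 19.4% TGACG, 35.0% CCAAT and 12.3% TATAAA. Cox7a1 held CCAAT at 2 places on the other strand, 137 to 133 and 74 to 70 bases before the start. Cox8b, and the window of Dio2 (chr12:91976879-91977128), held none of the 4 motifs as spelled here. These matches are a description of the letters, and none was tested for use in these cells.

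Ucp1 was detected well in BAT day 8 controls alone, with 6.97, 6.15 and 4.20 FPKM in replicates 1, 2 and 3. BAT day 4 controls had 0.423, 0.243 and 0.217 FPKM. WAT day 4 controls had 0.178, 0.0567 and 0.0371 FPKM, the last from a single read. Every other group had all its libraries at or under the floor. With EGCG, Ucp1 was at 0.0139, 0.0247 and 0.101 FPKM in BAT on day 4, and no read was found in any of the 3 BAT libraries of day 8. WAT day 8 controls also had no read in any library, and WAT with EGCG had 4 reads over the 3 libraries of day 4 and 1 read over those of day 8. Of all 24 libraries, 16 were at or under 3 reads and 9 had none. In the order of group means the 3 control groups named above stood apart from each other in replicates 1 and 2, and the libraries of the 5 groups under them overlapped.

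Cidea (ENSMUSG00000024526.8, chr18:67503218-67527448, plus strand), which the long noncoding RNA gene B430212C06Rik (at most 0.230 FPKM) overlaps on the other strand over 540 bases, followed the same order at the top. BAT day 8 controls had 11.1, 11.0 and 8.51 FPKM, and BAT day 4 controls had 0.342, 0.229 and 0.358 FPKM. BAT day 4 libraries with EGCG were uneven, with 0 reads in replicate 1 and 0.470 and 0.142 FPKM in replicates 2 and 3. BAT day 8 libraries with EGCG had 0.0183, 0.0812 and 0.0498 FPKM. The WAT libraries did not exceed 0.259 FPKM, which was a day 8 control. Only the highest group, BAT day 8 controls, was clear of its neighbour in the order. All the other neighbours overlapped, and 13 of 24 libraries were at or under the floor, 5 of them with no read.

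Cox7a1 had the highest level of the 6 genes. BAT day 8 controls had 191, 190 and 176 FPKM, and WAT day 8 controls had 22.5, 19.7 and 17.6 FPKM. With EGCG, WAT day 8 libraries had 7.98, 6.96 and 3.49 FPKM, the last from the library dominated by 5 genes, and BAT day 8 libraries had 2.87, 3.64 and 4.30 FPKM. On day 4 every library of either depot was low, between 2.01 and 5.42 FPKM. The WAT day 4 libraries with EGCG were the highest of these, with 5.42, 3.83 and 4.22 FPKM, against 3.00, 2.18 and 2.01 FPKM in their controls. BAT had 2.87, 3.54 and 3.43 FPKM in day 4 controls and 2.63, 2.67 and 3.18 FPKM with EGCG, and these 2 groups overlapped when replicate 3 was included.

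Cox8b had 84.8, 76.3 and 76.9 FPKM in BAT day 8 controls and single digits elsewhere. The WAT controls had 4.63, 5.35 and 6.91 FPKM on day 4 and 6.17, 6.88 and 6.50 FPKM on day 8, and these ranges overlapped. BAT day 4 controls had 3.50, 4.24 and 4.11 FPKM. Each EGCG group was lower than its control in every library. The EGCG libraries had 1.75, 1.13 and 2.24 FPKM in WAT on day 4 and 0.637, 0.277 and 0.331 FPKM on day 8. In BAT they had 0.944, 2.46 and 1.67 FPKM on day 4 and 1.65, 2.04 and 3.20 FPKM on day 8. WAT day 8 with EGCG was the lowest group, clear of its neighbour in replicates 1 and 2.

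Elovl3 had another order. It was highest in BAT day 4 controls, with 10.2, 12.9 and 12.3 FPKM, and next in WAT day 4 controls, with 3.96, 3.14 and 4.02 FPKM. The day 8 controls of the depots overlapped, at 2.05, 1.50 and 1.73 FPKM in WAT and 2.27, 1.20 and 1.53 FPKM in BAT. With EGCG it was at 0.666, 0.172 and 0.527 FPKM in BAT on day 4, and at 0.0362, 0.0570 and 0.113 FPKM in WAT on day 4. All 6 EGCG libraries of day 8 were at or under the floor, with 4 reads in WAT and 3 in BAT over 3 libraries each. Every control library of Elovl3 was above every EGCG library of the same depot and day.

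Dio2 was the most even of the 6 and the only one whose highest group had received EGCG. BAT day 4 libraries with EGCG had 5.18, 5.97 and 4.64 FPKM, and WAT day 4 libraries with EGCG had 3.21, 2.77 and 2.75 FPKM. The day 4 controls had 3.32, 2.65 and 2.74 FPKM in BAT and 1.42, 1.60 and 1.51 FPKM in WAT. On day 8, BAT controls had 2.59, 2.16 and 1.83 FPKM, and the remaining groups were under 1 FPKM. These were WAT controls with 0.536, 0.257 and 0.114 FPKM, WAT with EGCG with 0.476, 0.380 and 0.211 FPKM and BAT with EGCG with 0.220, 0.280 and 0.419 FPKM. The last 3 groups overlapped each other, as did WAT day 4 with EGCG and BAT day 4 controls.

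**Figure D1:**
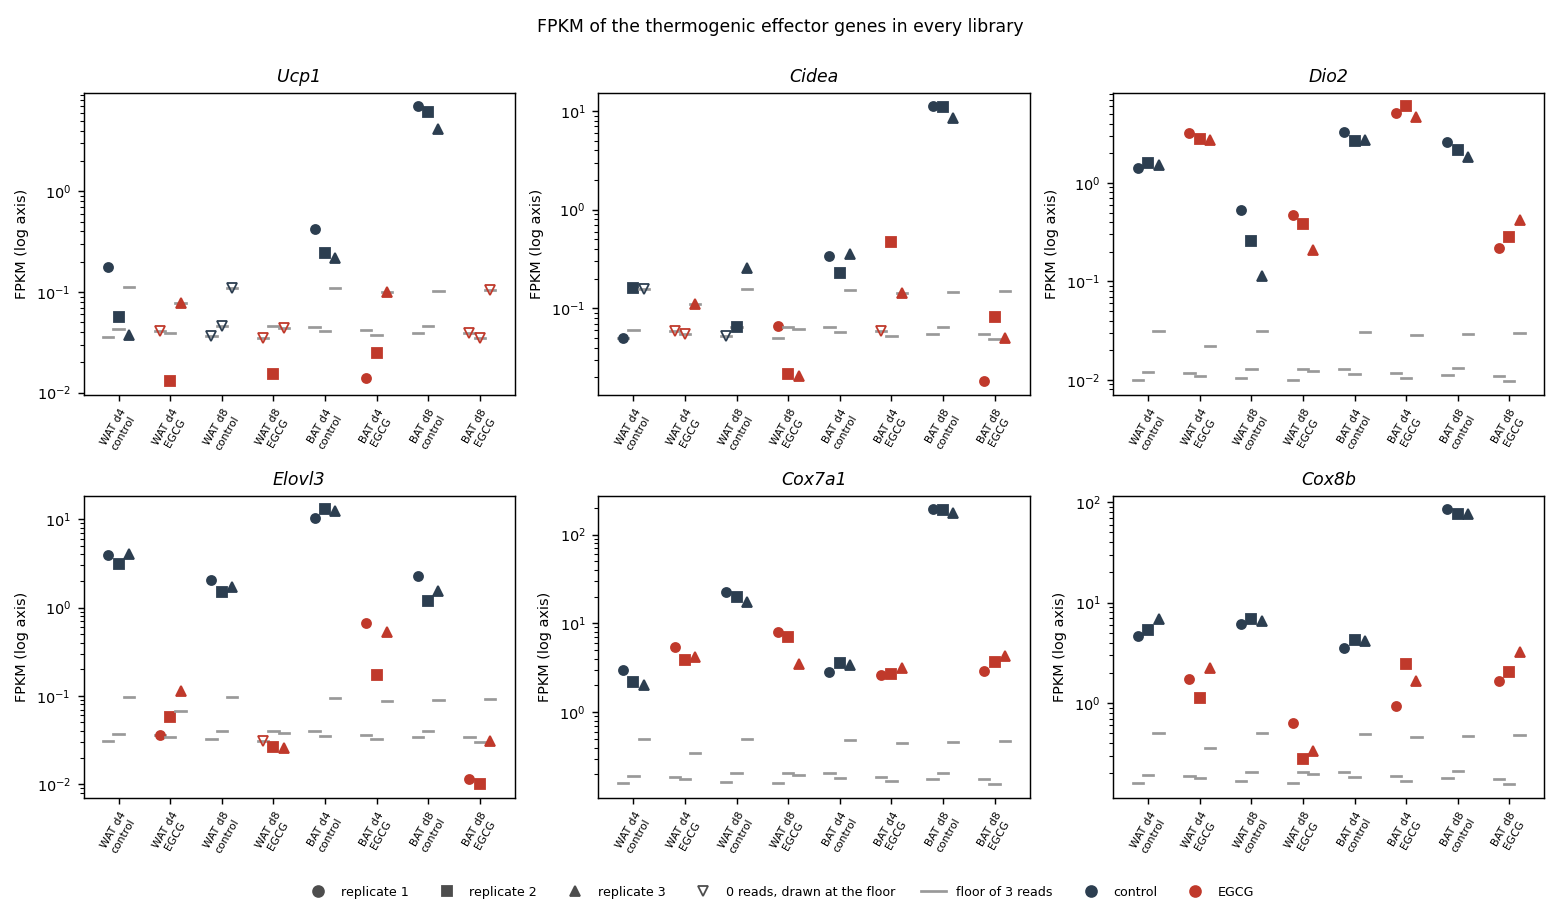
FPKM of each gene (vertical log axis) in the 24 libraries of the 8 groups (horizontal), with dark symbols for controls, red for EGCG, one symbol shape per replicate, a grey line at the floor of 3 reads in that library and open triangles at that floor for libraries with 0 reads. Ucp1, Cidea, Cox7a1 and Cox8b peaked in BAT day 8 controls, Elovl3 in BAT day 4 controls and Dio2 in BAT day 4 libraries with EGCG.

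The first comparison asked what EGCG changed against the control of the same depot and day. A difference was called at an adjusted p under 0.05 in limma, fitted over 14095 genes on log2(FPKM + 1). On this scale a change between low values comes out smaller than its ratio. Ratios of FPKM are given beside it with an interval that covers counting error only. All 6 genes passed the filter of 1 FPKM in at least 2 libraries, but Ucp1 and Cidea reached it in BAT day 8 controls alone. Their differences from that group were therefore bound to be large, and counts that include them are no support. Elovl3 reached it in the 4 control groups alone, so that its differences from them are likewise no independent support. Dio2 reached it in 5 groups, Cox8b in 7 and Cox7a1 in 8.

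In BAT on day 8 all 6 genes were lower with EGCG, where 72.6% of all tested genes were called and 26.1% were called lower. Cox7a1 fell most on the log2 scale (log2 change -5.50 ± 0.15 SE, adjusted p 4.34e-11), a ratio of 58.2-fold lower (48.5 to 70.3). Cox8b was 43.6-fold lower (34.2 to 56.4), with a log2 change of -4.84 ± 0.23 (adjusted p 3.22e-09). These subunits of the respiratory chain were low in all 3 EGCG libraries. Ucp1, with 932 reads in the controls and none with EGCG, was at least 179-fold lower (log2 change -2.92 ± 0.11, adjusted p 4.28e-10). Cidea, with 1105 reads against 6, was 214-fold lower (97.9 to 583), with a log2 change of -3.52 ± 0.15 (adjusted p 1.58e-09). Elovl3, with 288 reads against 2, was 167-fold lower (45.8 to 1386), but its log2 change was -1.41 ± 0.20 (adjusted p 5.44e-05) because both levels were near or under the pseudocount. Dio2 fell least as a ratio, 9.50-fold (7.99 to 11.4), with a log2 change of -1.43 ± 0.12 (adjusted p 6.09e-07). Each of the 6 was lower in replicate 3 as well.

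In BAT on day 4, 4 of the 6 genes were called, against 48.5% of all tested genes. Elovl3 was 28.8-fold lower with EGCG (22.7 to 37.0, log2 change -3.16 ± 0.20, adjusted p 2.1e-07), and Dio2 was 1.88-fold higher (1.77 to 2.01, log2 change 0.72 ± 0.12, adjusted p 0.000464). These enzymes of fatty acid elongation and thyroid hormone activation thus moved in opposite directions, and replicate 3 had the same signs. Cox8b was 2.22-fold lower (1.62 to 3.09, log2 change -0.90 ± 0.23, adjusted p 0.00606), a call that was lost without BAT day 4 EGCG replicate 1 (adjusted p 0.0611). Ucp1 had 3 reads against 46, a ratio of 16.8-fold lower (5.39 to 84.3), and a log2 change of -0.38 ± 0.11 (adjusted p 0.0105). That call was lost without BAT day 4 control replicate 1 (adjusted p 0.0944) and when replicate 3 was added (0.131). Cox7a1 was not called (-0.20, 95% interval -0.52 to 0.13), and neither was Cidea (-0.08, -0.41 to 0.25), which became lower without BAT day 4 EGCG replicate 2, the library with 0.470 FPKM (-0.36, adjusted p 0.0401).

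In WAT on day 8, 3 of the 6 were called, all lower, where 63.6% of all tested genes were called and 18.9% were called lower. Elovl3, with 305 reads against 2, was 156-fold lower (42.8 to 1293, log2 change -1.45 ± 0.20, adjusted p 6.53e-05). Cox8b was 13.5-fold lower (8.11 to 24.0, log2 change -2.38 ± 0.23, adjusted p 2.71e-06), and Cox7a1 was 2.82-fold lower (2.44 to 3.27, log2 change -1.39 ± 0.15, adjusted p 6.87e-06). Dio2 was at like levels (log2 change 0.04, 95% interval -0.23 to 0.31). Ucp1 was at or under the floor in both groups, so no difference was detectable at this depth, and Cidea had 5 reads against 3.

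In WAT on day 4, 4 of the 6 were called, against 53.7% of all tested genes. Elovl3 was 76.4-fold lower (38.6 to 178, log2 change -2.11 ± 0.20, adjusted p 5.28e-06) and Cox8b 3.46-fold lower (2.49 to 4.89, log2 change -1.30 ± 0.23, adjusted p 0.000498). Dio2 was 1.98-fold higher (1.82 to 2.16, log2 change 0.67 ± 0.12, adjusted p 0.000771) and Cox7a1 1.75-fold higher (1.34 to 2.30, log2 change 0.64 ± 0.15, adjusted p 0.00328). The cytochrome c oxidase genes thus differed in sign here. Ucp1 had 1 read against 19 (18.3-fold lower, 2.91 to 760) but was not called on the log2 scale (-0.15, adjusted p 0.262). It was called in limma voom on the reads (-3.25, adjusted p 0.0145). In replicate 3 it had 0.0778 FPKM with EGCG and 0.0371 FPKM in the control, from 3 reads and 1 read. Both were at or under the floor, so no order can be read from them.

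Across all tested genes the scaling moved the balance of the EGCG calls. Of the called genes, 64.1% were higher in WAT on day 4, 70.3% in WAT on day 8 and 64% in BAT on day 8, against 47%, 50.6% and 51% after median-ratio scaling. On day 8 all tested genes together had a median change of 0.17 in either depot, and of 0.00 in WAT and 0.01 in BAT after that scaling. Set against the median, the changes on day 8 were -1.61, -1.55 and -2.54 for Elovl3, Cox7a1 and Cox8b in WAT. In BAT they were -3.08, -3.69, -1.60, -1.58, -5.67 and -5.01 for Ucp1, Cidea, Dio2, Elovl3, Cox7a1 and Cox8b. Neither median-ratio scaling nor quantile normalization changed a call of the 6 genes in the 4 EGCG comparisons.

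**Figure D2:**
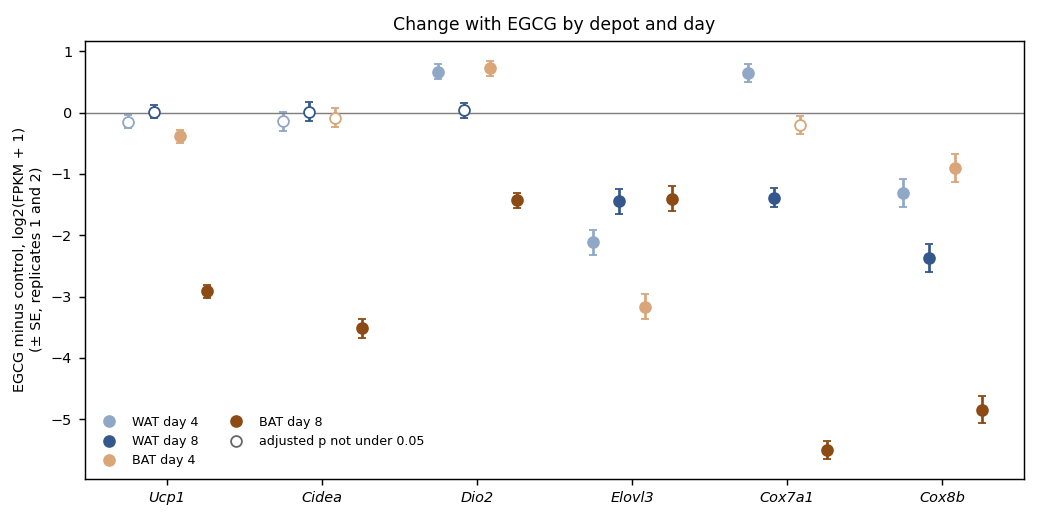
Log2 change with EGCG against the control (vertical, log2(FPKM + 1), points with ± SE from the fit of replicates 1 and 2) for each gene in 4 comparisons, with open points where the adjusted p was not under 0.05. Elovl3 and Cox8b were lower in all 4, Dio2 was higher on day 4 of either depot, and Cox7a1 ranged from 0.64 in WAT on day 4 to -5.50 in BAT on day 8.

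The same genes were compared between days, which asks what changed from the end of induction to the end of differentiation. The medium was switched after day 4, from the induction medium to the one with insulin and T3. Time in differentiation and medium therefore cannot be told apart in these comparisons. In BAT controls 5 of the 6 were called, where 69.2% of all tested genes were. Cox7a1 was 59.1-fold higher on day 8 (48.5 to 72.8, log2 change 5.51 ± 0.15, adjusted p 1.41e-10), and Cox8b 20.8-fold higher (17.3 to 25.2, log2 change 4.07 ± 0.23, adjusted p 2.08e-08). Cidea was 39.1-fold higher (26.9 to 59.1, log2 change 3.23 ± 0.15, adjusted p 5.34e-09) and Ucp1 20.1-fold higher (14.9 to 27.6, log2 change 2.50 ± 0.11, adjusted p 2.73e-09). For Cidea and Ucp1 a large difference from BAT day 8 controls was bound to arise, as stated above. Elovl3 went the other way and was 6.55-fold lower (5.78 to 7.44, log2 change -2.22 ± 0.20, adjusted p 1.37e-06). Dio2 was not called (-0.24, 95% interval -0.51 to 0.03). Among all called genes 41.5% were higher, and 55.3% after median-ratio scaling, which moved the median of all tested genes from -0.10 to 0.04. None of these calls of the 6 genes changed with it.

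In WAT controls, 3 of the 6 were called between days, against 61% of all tested genes. Cox7a1 was 8.11-fold higher on day 8 (6.50 to 10.2, log2 change 2.63 ± 0.15, adjusted p 4.64e-08). Dio2 was 3.66-fold lower (3.14 to 4.27, log2 change -0.85 ± 0.12, adjusted p 8.8e-05). Elovl3 was 1.99-fold lower (1.73 to 2.28, log2 change -0.71 ± 0.20, adjusted p 0.00965), a call that was lost without WAT day 4 control replicate 1 (adjusted p 0.0756), without WAT day 8 control replicate 2 (0.0719) and with a pseudocount of 0.1 (0.0706). Cox8b was not called (0.33, 95% interval -0.17 to 0.83). Ucp1 had no read on day 8 against 19 on day 4, at least 2.85-fold lower, and was called in limma voom (-4.03, adjusted p 0.00516) but not on the log2(FPKM + 1) scale (-0.16, adjusted p 0.22). Cidea had 3 reads against 11 and was not called (-0.10, adjusted p 0.601).

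With EGCG, the change between days was called for 1 of the 6 in BAT and 3 of the 6 in WAT. In BAT it was Dio2, 22.2-fold lower on day 8 (18.8 to 26.4, log2 change -2.39 ± 0.12, adjusted p 2.39e-08), where 58% of all tested genes were called and 28.2% were called lower. Elovl3 had 2 reads on day 8 against 71 on day 4, a ratio of 38-fold lower (10.1 to 320), but missed the threshold on the log2 scale (-0.47, adjusted p 0.0687). It was called lower with a pseudocount of 0.1 (adjusted p 0.00162), with replicate 3 added (0.0139, and 0.00403 without WAT day 8 EGCG replicate 3), in limma voom (0.0146) and without BAT day 4 EGCG replicate 2 (-0.72, adjusted p 0.0205). Without that library Cox8b was also called higher (0.55, adjusted p 0.0322), and without BAT day 4 EGCG replicate 1 Cidea was called lower (-0.49, adjusted p 0.00738). In WAT, 59.5% of all tested genes were called. Dio2 was 6.87-fold lower (5.99 to 7.92, log2 change -1.48 ± 0.12, adjusted p 1.13e-06). Cox7a1 was 1.64-fold higher (1.33 to 2.02, log2 change 0.60 ± 0.15, adjusted p 0.00417), but not without WAT day 4 EGCG replicate 2 (adjusted p 0.0524), nor with replicate 3 added (0.175). The values of replicate 3 went the other way, but its day 8 library is the one dominated by 5 genes, and with replicate 3 added and that library left out Cox7a1 was called (0.63, adjusted p 0.00112). Cox8b was 2.97-fold lower (1.66 to 5.62, log2 change -0.74 ± 0.23, adjusted p 0.0144), but not without WAT day 4 EGCG replicate 1 (adjusted p 0.114) or WAT day 8 EGCG replicate 2 (0.113).

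Between depots, the day 8 controls differed most. BAT exceeded WAT in 5 of the 6, where 53.6% of all tested genes were called and 31.6% were called higher in BAT. Cox8b was 12.5-fold higher (10.8 to 14.4, log2 difference 3.44 ± 0.23, adjusted p 2.47e-07), Cox7a1 8.96-fold higher (8.28 to 9.71, 3.12 ± 0.15, adjusted p 2.08e-08) and Dio2 5.81-fold higher (5.02 to 6.75, 1.28 ± 0.12, adjusted p 5.06e-06). Ucp1 was at least 160-fold higher (log2 difference 2.92 ± 0.11, adjusted p 4.72e-09), and Cidea, with 1105 reads against 3, was 385-fold higher (131 to 1870, log2 difference 3.54 ± 0.15, adjusted p 1.15e-08). For Ucp1 and Cidea a large difference from BAT day 8 controls was bound to arise, as stated above. Elovl3 alone was not called (-0.04, 95% interval -0.49 to 0.41).

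In day 4 controls, 2 of the 6 were higher in BAT, where 55.8% of all tested genes were called and 41.4% were called higher. They were Elovl3, 3.25-fold (2.97 to 3.57, log2 difference 1.47 ± 0.20, adjusted p 0.000108), and Dio2, 1.97-fold (1.81 to 2.15, 0.66 ± 0.12, adjusted p 0.000839). Of all called genes 74.3% were higher in BAT, and 50.6% after median-ratio scaling, which moved the median of all tested genes from 0.15 to 0.01. Set against the median, Elovl3 differed by 1.32 and Dio2 by 0.51. Ucp1 had 46 reads against 19 and was not called (0.25, adjusted p 0.0608), although it passed without BAT day 4 control replicate 2 (0.35, adjusted p 0.0416) and with no filter on low values (0.0246).

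Among EGCG libraries, Cox7a1 was lower in BAT than in WAT on both days. The log2 difference was -0.61 ± 0.15 on day 4 (adjusted p 0.00531, lost without WAT day 4 EGCG replicate 1 at 0.0598 and with replicate 3 added at 0.0723) and -0.996 ± 0.15 on day 8 (adjusted p 0.000314). The depot order of Cox7a1 on day 8 was thus the reverse of that in controls, except in replicate 3, where WAT came from the library dominated by 5 genes. Dio2 was higher in BAT on day 4 (log2 difference 0.72 ± 0.12, adjusted p 0.000557), with 48.7% of all tested genes called, of which 67.6% were higher in BAT and 54.8% after median-ratio scaling. On day 8 Cox8b was higher in BAT (0.97 ± 0.23, adjusted p 0.00567, 38.4% of all tested genes called), but not without WAT day 8 EGCG replicate 2 (0.0567). On day 4, leaving out 1 library at a time left between 1 and 4 of the 6 called. Without BAT day 4 EGCG replicate 1, Cidea (0.56, adjusted p 0.00528) and Cox8b (0.52, adjusted p 0.0492) passed, and without BAT day 4 EGCG replicate 2 Elovl3 did (0.67, adjusted p 0.0356).

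The difference of the EGCG effect between the depots was tested as an interaction. On day 8 it was more negative in BAT for 5 of the 6 genes, where 39.2% of all tested genes were called and 19.7% were called more negative. The differences of log2 change, BAT minus WAT, were -4.11 ± 0.21 for Cox7a1, -3.54 ± 0.21 for Cidea, -2.93 ± 0.15 for Ucp1, -2.46 ± 0.32 for Cox8b and -1.47 ± 0.17 for Dio2. Ucp1 and Cidea reached 1 FPKM in BAT day 8 controls alone, so their differences were bound to arise. A count that includes them is no support. In WAT on day 8 Ucp1 had 1 read with EGCG against 0 in controls, and Cidea 5 against 3. A fall of either gene there could not have been seen. The call of Cox8b was lost in limma voom (-1.64, adjusted p 0.0647). For Elovl3 the difference was 0.04 (95% interval -0.59 to 0.67). On day 4 the difference was called for Cox7a1 (-0.84 ± 0.21, adjusted p 0.0118) and Elovl3 (-1.05 ± 0.29, adjusted p 0.019), with 28.1% of all tested genes called and 16.1% called more negative. Of those called, 42.7% were positive, and 60.4% after median-ratio scaling. The call of Cox7a1 was lost with replicate 3 added (-0.85, adjusted p 0.0729) and in limma voom (-1.07, adjusted p 0.0856). The value of Elovl3 depended on the scale: with a pseudocount of 0.1 it was -0.04, and its ratios were 28.8-fold lower in BAT and 76.4-fold lower in WAT. Its call was also lost without WAT day 4 control replicate 2 (adjusted p 0.0704), BAT day 4 control replicate 2 (0.073) or BAT day 4 EGCG replicate 2 (0.0735). With no filter on low values its adjusted p was 0.0503. Cox8b passed only without BAT day 4 EGCG replicate 1 (0.82, adjusted p 0.0363).

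Between days, the EGCG effect differed for all 6 genes in BAT, where 55.4% of all tested genes were called, 62.8% of them positive, and 46.8% after median-ratio scaling. Day 8 minus day 4 was -5.30 ± 0.21 for Cox7a1, -3.94 ± 0.32 for Cox8b, -3.44 ± 0.21 for Cidea, -2.53 ± 0.15 for Ucp1 and -2.15 ± 0.17 for Dio2. The values of Ucp1 and Cidea include BAT day 8 controls, the only group where they reached 1 FPKM. Their differences were therefore bound to arise, and the count that includes them is no support. The positive value of Elovl3 (1.75 ± 0.29) arose on the log2(FPKM + 1) scale, whereas in limma voom on the reads it was -1.62 (adjusted p 0.366). In WAT the difference was called for 3 of the 6, against 49.4% of all tested genes, with 19.7% called more negative. It was -2.03 ± 0.21 for Cox7a1, -1.07 ± 0.32 for Cox8b and -0.63 ± 0.17 for Dio2. The call of Dio2 was lost with a pseudocount of 0.1 (-0.80, adjusted p 0.0803) and in limma voom (-0.83, adjusted p 0.114), and that of Cox8b was lost without WAT day 4 control replicate 1 (adjusted p 0.0537), WAT day 4 EGCG replicate 1 (0.0643) or WAT day 8 EGCG replicate 2 (0.0644). Elovl3 missed the threshold in WAT (0.67, adjusted p 0.0755) and passed it with replicate 3 added (0.70, adjusted p 0.0226).

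The change between days in controls also differed between depots for all 6, against 40% of all tested genes, of which 37.1% were positive, and 55.2% after median-ratio scaling. It was larger in BAT by 3.74 ± 0.32 for Cox8b, 3.33 ± 0.21 for Cidea, 2.88 ± 0.21 for Cox7a1, 2.66 ± 0.15 for Ucp1 and 0.62 ± 0.17 for Dio2, and more negative for Elovl3 (-1.51 ± 0.29). Ucp1 and Cidea reached 1 FPKM in BAT day 8 controls alone, so their differences were bound to arise. The count that includes them is no support. The call of Dio2 was lost when any of 4 libraries was left out. The adjusted p was 0.0525 without WAT day 4 control replicate 2, 0.0515 without WAT day 8 control replicate 2, 0.0633 without BAT day 4 control replicate 2 and 0.061 without BAT day 8 control replicate 1. These comparisons share their control libraries.

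Over the 8 group means of log2(FPKM + 1), 4 of the genes rose and fell together. Pearson's r was 0.996 between Ucp1 and Cidea, 0.916 between Ucp1 and Cox8b, 0.865 between Ucp1 and Cox7a1 and 0.854 between Cox7a1 and Cox8b. No r of Dio2 or Elovl3 with another member exceeded 0.381. These are descriptions over 8 points, which rest on the same libraries and, for the first 4 genes, largely on BAT day 8 controls. Of 10195 genes with at least 5 FPKM in their highest group, those most like Ucp1 were Ghitm (0.976), Atp2a3 (0.973) and Crls1 (0.973, cardiolipin synthase). Those most like Cidea were Gm13910 (0.967), Atp2a3 (0.966) and Acss1 (0.964, a mitochondrial acetyl-CoA synthetase). For Cox7a1 they were Phyh (0.988) and Hacl1 (0.986), enzymes of peroxisomal alpha-oxidation, and Cyp27a1 (0.984, sterol 27-hydroxylase). For Cox8b they were Retsat (0.988, retinol saturase), Hint3 (0.983) and 1110003O08Rik (0.98). Elovl3 was most like Apex2 (0.984), Cyb5b (0.977, outer mitochondrial cytochrome b5) and Nrn1 (0.976), and Dio2 most like 2310008H04Rik (0.969), Sclt1 (0.964) and Ncapd3 (0.96).

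Because Cox7a1 and Cox8b have partners that occupy the same place in the enzyme, their levels were also set against these. Cox7a1 made up 57.9% ± 1.15 (SD, n = 2) of the sum of Cox7a1 and Cox7a2 FPKM in BAT day 8 controls and 53.1% in replicate 3. The share was 27.0% ± 1.35 in WAT day 8 controls. On day 4 it was 3.90% ± 0.782 in WAT controls, 3.63% ± 0.185 in BAT controls and 8.46% ± 0.565 in WAT with EGCG. Thus the FPKM of Cox7a1 exceeded that of Cox7a2 in BAT day 8 controls alone. With EGCG on day 8 the share was 11.0% ± 0.443 in WAT and 4.39% ± 0.484 in BAT. In the library dominated by 5 genes it was 10.7%, close to the other libraries of its group, since a scaling shared by both genes cancels in a share. Cox8b stayed the minor form throughout, with 9.49% ± 0.773 of Cox8b and Cox8a FPKM in BAT day 8 controls, 2.01% ± 0.0785 in WAT day 8 controls and 0.139% ± 0.0773 in WAT day 8 with EGCG. In BAT the share of Cox8b on day 8 with EGCG was 0.508% ± 0.0787, against 0.954% ± 0.0599 in day 4 controls.

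**Figure D3:**
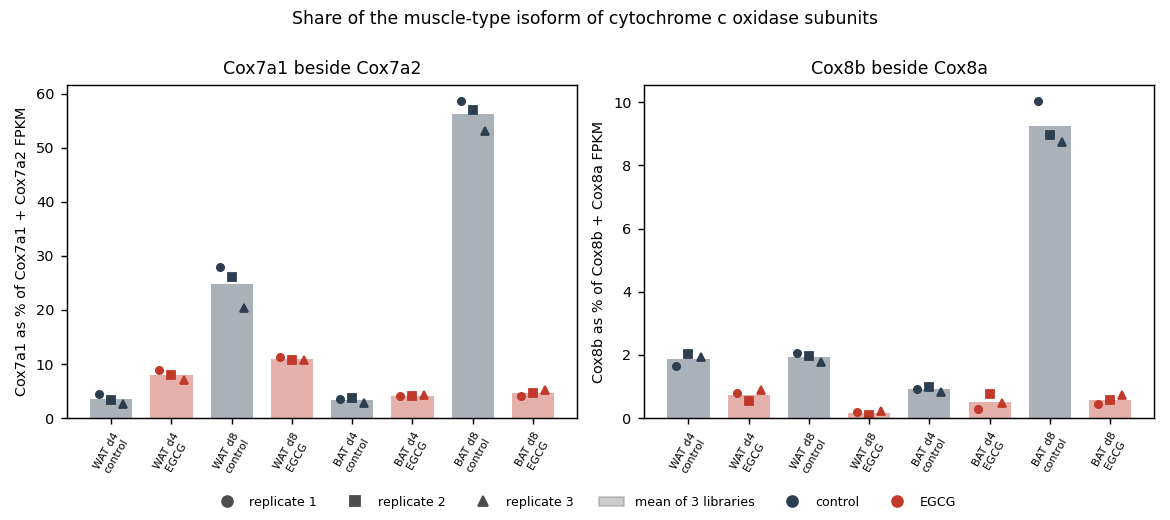
Cox7a1 as a percentage of Cox7a1 and Cox7a2 FPKM (left) and Cox8b as a percentage of Cox8b and Cox8a FPKM (right) in the 8 groups, with bars from 0 for the mean of 3 libraries, symbols for the replicates, dark for controls and red for EGCG. The share of Cox7a1 passed 50% in BAT day 8 controls, where it was between 53.1% and 58.7%, while that of Cox8b was highest in the same group, at 9.49% ± 0.773 (mean ± SD of replicates 1 and 2).

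Of 18 paralogs of the members, 14 were tested. With EGCG, 4 were higher and 4 lower in WAT on day 4, 2 and 7 in WAT on day 8, 1 and 6 in BAT on day 4, and 3 and 10 in BAT on day 8. Their median log2 changes were 0.09, -0.15, -0.15 and -1.02, where those of all tested genes were 0.09, 0.17, 0.03 and 0.17. Cidec, the Cidea relative of white fat droplets, had far more RNA than Cidea, at 111 to 120 FPKM in WAT day 8 controls and 132 to 143 in BAT day 8 controls. It was lower with EGCG in all 4 comparisons, by log2 changes from -2.25 ± 0.11 in BAT on day 4 to -6.57 ± 0.11 in WAT on day 8. Cideb was called in none of the 4.

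The Ucp1 relatives Ucp2 and Ucp3, carriers of the same mitochondrial family, were highest in BAT day 8 controls too. Ucp2 had 24.2, 25.4 and 26.3 FPKM there, against 6.97, 6.15 and 4.20 FPKM for Ucp1, and 1.99, 1.82 and 2.28 FPKM with EGCG (log2 change -3.15 ± 0.16, adjusted p 4.96e-09). Ucp3 had 4.50, 5.02 and 7.54 FPKM there and at most 0.0772 FPKM with EGCG (log2 change -2.46 ± 0.10, adjusted p 9.36e-10). In WAT on day 8, Ucp2 (-1.57 ± 0.16) and Ucp3 (-1.06 ± 0.10) were also lower with EGCG. The more distant Slc25a27 and Slc25a14 moved by at most 0.70 in any EGCG comparison.

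Dio3, which inactivates T3, had more RNA than Dio2 in every library of 7 of the 8 groups, and less in every library of WAT day 4 with EGCG. It was higher with EGCG in WAT on day 4 (0.50 ± 0.11) and day 8 (0.69 ± 0.11) and in BAT on day 4 (1.68 ± 0.11), and lower in BAT on day 8 (-0.57 ± 0.11, adjusted p 0.000401), where it was 35.0, 36.3 and 42.9 FPKM in controls. Dio1 did not exceed 0.0594 FPKM in any library. Among the other elongases, Elovl1, Elovl5 and Elovl6 stood at 1.21 to 63.8 FPKM. Elovl4 shared the high level of Elovl3 in BAT day 4 controls (8.62, 10.1 and 10.5 FPKM) and was lower with EGCG there (-0.91 ± 0.14, adjusted p 0.000238), but on day 8 it was higher with EGCG in BAT (1.44 ± 0.14, adjusted p 1.97e-06). Elovl1 was also higher with EGCG in BAT on day 8 (0.73 ± 0.05), and Elovl5 (-1.28 ± 0.04) and Elovl6 (-1.15 ± 0.19) were lower. Elovl2 and Elovl7 were not tested, with at most 0.306 and 0.542 FPKM, and Cox8c had no read in any library.

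A list of 12 other cytochrome c oxidase subunits encoded in the nucleus, which leaves out Cox8c, was tested in full. With EGCG, 12 of 12 were lower in BAT on day 8 (median -1.35), 10 in BAT on day 4 (median -0.50), 10 in WAT on day 4 (median -0.37) and 6 in WAT on day 8 (median -0.24, and 9 lower after median-ratio scaling). In BAT on day 8 the largest changes were those of Cox4i2 (-2.33 ± 0.09), the lung form of its subunit, and Cox4i1 (-1.75 ± 0.07), its common form and the most abundant of the list. Cox7a2 (-0.96 ± 0.10) and Cox8a (-1.09 ± 0.07) were lower by less than their partners Cox7a1 and Cox8b. On day 4 Cox4i2 was higher with EGCG, by 1.60 ± 0.09 in WAT and 1.23 ± 0.09 in BAT. From day 4 to day 8 in BAT controls 12 of 12 were higher (median 0.85, with -0.10 for all tested genes), led by Cox4i2 (3.43 ± 0.09) and by Cox6a2 (1.62 ± 0.18), a muscle type form. On day 8, 11 of 12 were higher in BAT than in WAT controls (median 1.26).

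The regulators and signals that act on these genes were counted in the same way. Counts of all the lists are to be read beside the shares of all tested genes that were called. With EGCG these were 53.7% in WAT on day 4, 63.6% in WAT on day 8, 48.5% in BAT on day 4 and 72.6% in BAT on day 8. Those called lower were 18.9% in WAT and 26.1% in BAT on day 8. Between days in BAT controls 69.2% were called, and between depots in day 8 controls 53.6%. Of 13 tested transcription regulators of brown fat, 11 were lower and 1 was higher with EGCG in BAT on day 8 (median -0.77), 7 were lower in BAT on day 4 (median -0.27), 8 lower and 2 higher in WAT on day 4 (median -0.61), and 6 lower and 2 higher in WAT on day 8 (median -0.13). After median-ratio scaling the last 2 comparisons had 9 and 10 lower and none higher. The coactivators Ppargc1a and Ppargc1b were lower in all 4 comparisons, with log2 changes in BAT on day 8 of -1.77 ± 0.12 and -2.48 ± 0.11. Irf4, a factor that partners Ppargc1a, had 8.16, 7.94 and 6.65 FPKM in BAT day 8 controls and was also lower there (-3.12 ± 0.29). Esrra was the most abundant of the list. In BAT controls Irf4 was higher on day 8 than on day 4 (2.99 ± 0.29), along with Rxrg (1.15 ± 0.11). On day 8, 11 of the 13 were higher in BAT than in WAT controls (median 1.01), among them Ppargc1b (1.99 ± 0.11).

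Of 11 tested genes of the adrenergic and cyclic AMP arm, 5 were lower and 4 higher with EGCG in BAT on day 8 (7 and 2 after median-ratio scaling), with a median of -0.17. The beta-3 adrenergic receptor Adrb3 was the most changed, at 94.0, 102 and 98.5 FPKM in controls against 4.50, 4.35 and 4.83 FPKM with EGCG (-4.19 ± 0.11). Prkar2b, a regulatory subunit of protein kinase A, followed (-3.29 ± 0.09), and Prkar1a was the most abundant of the list. The other 3 EGCG comparisons had 4, 3 and 3 genes lower and 5, 3 and 3 higher in WAT on day 4, WAT on day 8 and BAT on day 4, with medians of 0.05, -0.12 and 0.01, of which the positive ones turned negative after median-ratio scaling (-0.06 and -0.02). Adrb3 was among the lower ones in each. Of 11 genes of the thyroid hormone arm, 8 were lower and 1 was higher with EGCG in BAT on day 8 (median -0.46). They included the T3 target genes Hr (-2.10 ± 0.15) and Klf9 (-1.16 ± 0.07), of which Hr had been 4.08 ± 0.15 higher on day 8 than on day 4 in BAT controls. With EGCG, Hr was also higher on day 8 than on day 4, by 1.65 ± 0.15 in BAT and 1.73 ± 0.15 in WAT. Against the controls of day 4, 7 of the 11 were lower with EGCG in BAT (median -0.24). In WAT on day 4, 5 were lower and 1 was higher (median -0.18), the receptor Thra (0.88 ± 0.07). In WAT on day 8, 4 were lower and 2 higher (median -0.10).

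Of 12 tested further brown adipocyte genes, 8 were lower and 3 higher with EGCG in BAT on day 8 (median -1.18). The largest changes were in the amino acid transporter Slc36a2 (-5.59 ± 0.10), with 88.3, 85.5 and 85.6 FPKM in controls and 0.897, 0.747 and 1.12 FPKM with EGCG, and in the potassium channel Kcnk3 (-4.88 ± 0.13). In the other 3 comparisons, 8 were lower in WAT on day 4 and 7 in each of WAT on day 8 and BAT on day 4, with 0, 2 and 2 higher and medians of -0.45, -0.48 and -0.54. In BAT controls 9 were higher on day 8 than on day 4, led by Plin5 (3.19 ± 0.11), a droplet protein of oxidative tissues, and P2rx5 (3.05 ± 0.11).

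In BAT on day 8, general adipocyte genes were lower with EGCG, as all 6 members were. In the other comparisons not all members were lower, with Dio2 higher on day 4 of either depot and Cox7a1 higher in WAT on day 4. All 15 general adipocyte genes were lower with EGCG in each of the 4 comparisons, with medians of -2.29 in WAT on day 4, -4.52 in WAT on day 8, -2.17 in BAT on day 4 and -4.58 in BAT on day 8. The most changed were Cfd (-8.22 ± 0.13) and Retn (-7.08 ± 0.13) in WAT on day 8. Fabp4 was the most abundant. The summed FPKM of the 15 was 12209 to 12716 in BAT day 8 controls against 527 to 545 with EGCG. In WAT on day 8 it was 6756 to 7686 in controls against 242 to 735 with EGCG. The 242 came from replicate 3, the library dominated by 5 genes, and replicates 1 and 2 had 674 and 735. On day 4 it was 6775 to 8668 in BAT controls against 1678 to 1765 with EGCG and 3957 to 4712 in WAT controls against 1027 to 1200 with EGCG. From day 4 to day 8, 13 of 15 were higher in BAT controls (median 0.73) and 11 in WAT controls (median 1.10). Cidec and Adrb3 are also in lists above. The part of adipocyte number in the values of the 6 genes was not tested.

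Markers of other cells were read beside these results. Of 16 skeletal muscle genes, 9 were tested, and all 9 were higher on day 8 than on day 4 in BAT controls, led by Mb (myoglobin, 5.20 ± 0.16), at 55.1, 54.5 and 49.8 FPKM on day 8. The summed FPKM of the 16 was 104 to 109 in BAT day 8 controls and 36.9 to 53.0 in BAT day 8 with EGCG. It was 15.1 to 23.1 in BAT day 4 controls, 61.2 to 65.4 in WAT day 4 controls and 101 to 107 in WAT day 4 with EGCG. Mb held a large part of the sum in BAT day 8 controls. Mb was also higher there than in WAT day 8 controls (log2 difference 3.97 ± 0.16), followed by Myog (0.62 ± 0.24) among called muscle genes. In BAT day 8 controls 8 of the 16 were at 1 FPKM or more in every library, 8 were under it in every library, and 1 of these, Pax7, had no read. With EGCG in BAT on day 8, 5 of the 9 were lower (Mb -3.71 ± 0.16), and the part of muscle-like cells in the values of Cox7a1 and Cox8b was not tested. In WAT with EGCG, 6 were higher on day 4, and 1 was higher and 3 lower on day 8.

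Of 8 macrophage genes, 7 were tested. With EGCG, 6 were higher in WAT and 5 in BAT on day 4, and 7 of 7 were lower in either depot on day 8, with a summed FPKM of 119 to 131 in BAT day 8 controls against 56.0 to 58.5 with EGCG. All 7 endothelial genes were tested. With EGCG, 6 were higher in WAT on day 4, 4 in WAT on day 8 and 6 in BAT on each day, and none was lower. Their sum in BAT on day 8 was 22.0 to 22.8 FPKM in controls and 40.2 to 44.4 FPKM with EGCG. The 3 tested genes of brown depot identity were all higher in BAT than in WAT day 8 controls and the 3 of white depot identity all lower. In BAT on day 8, where all 6 thermogenic genes were lower with EGCG, Zic1 was higher (0.89 ± 0.08), as were 2 of the 3 brown and 2 of the 3 white identity genes. The part of these cell types in the results above was not tested.

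**Figure D4:**
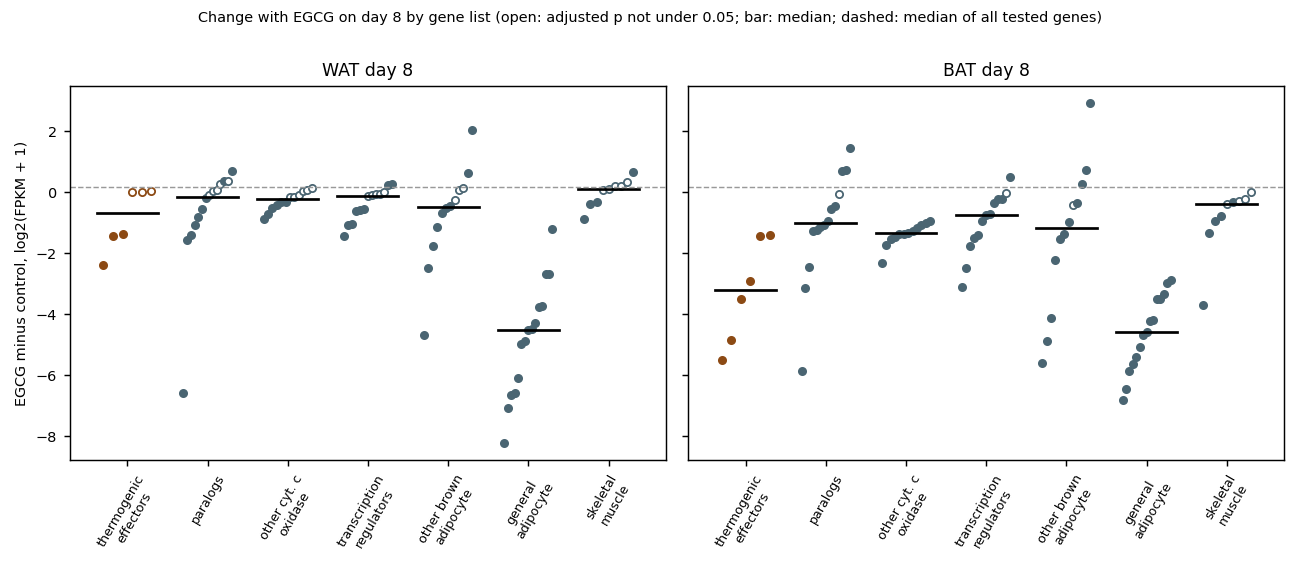
Log2 change with EGCG on day 8 (vertical, log2(FPKM + 1)) in WAT (left) and BAT (right) for each tested gene of 7 lists, with filled points where the adjusted p was under 0.05, a bar at the list's median and a dashed line at the median of all tested genes. In BAT the 6 thermogenic effectors lay between -1.41 and -5.50, and the medians were -1.35 for the other cytochrome c oxidase subunits and -4.58 for general adipocyte genes.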

How the data were processed

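Expression was measured by RNA sequencing in 24 libraries. The authors deposited FPKM values in 2 tables, replicates 1 and 2 in the first and replicate 3 in the second. The submitters' processing notes name FastQC 0.11.9, HISAT2 2.2.0, HTSeq 0.11 and the build mm9. The strand setting is not given in the sources used here. All 37310 identifiers matched GENCODE vM1, and every gene length was that of the longest transcript. FPKM times length gave whole multiples of 1 read for 100% of values, within 0.01 read. These recovered reads gave depth, floors and intervals (exact conditional, 95%), which cover counting error only because there were no molecular identifiers.

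Genes with at least 1 FPKM in 2 of 16 libraries (14095) were fitted as log2(FPKM + 1), 1 mean per group, in limma 3.58.1 (eBayes with a trend) under R 4.3.3, with 8 residual degrees of freedom, which the prior raised to 11.4. Two-sided p-values were adjusted after Benjamini and Hochberg, separately in 17 contrasts. Replicate 3, scaled in a table of its own, gave directions and an alternative fit. Sampling of reads did not account for the spread between replicates 1 and 2 (median squared difference 1.62 to 3.90, against 0.455). The fit was tested on simulated data before use. Between groups, deviations of libraries with the same number correlated between -0.079 and 0.081 over 28 pairs, so the numbers were not taken as pairs.

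The 13 gene lists, which include that of the members, were chosen with earlier results of these data known. All 144 list entries matched, 1 through another symbol. The genes named are the 6 members, their paralogs, in each other list the 2 most changed called genes and the 1 of highest FPKM, and for each member the 3 non-members with the highest Pearson r over the 8 group means. Pax7, the muscle marker with no read, was named outside this rule after its values were seen. Promoter windows were read from NCBIM37. RefSeq's promoter table (GRCm38.p6) holds the same bases for Ucp1, Cox7a1 and Cox8b. Motif shares were counted over the windows of all protein-coding genes. Alternatives were a pseudocount of 0.1, no filter, median-ratio scaling, quantile normalization, a replicate block, leaving out each library, both tables with and without WAT day 8 EGCG replicate 3, limma voom on recovered reads, and a floor of 1 read.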

Additional observations from a re-analysis of the deposited data

Results flagged for a closer look

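The results below are those where the response of a gene differed between depots or days by the interaction test itself (limma, adjusted p under 0.05, log2 units). They are given as values, with their spread and calls stated in the report.

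The EGCG effect on day 8 differed between BAT and WAT by -4.11 for Cox7a1 (adjusted p 1.94e-07), -3.54 for Cidea (6.29e-07), -2.93 for Ucp1 (2.05e-07), -2.46 for Cox8b (0.000121) and -1.47 for Dio2 (6.36e-05). On day 4 it differed by -1.05 for Elovl3 (adjusted p 0.019) and -0.84 for Cox7a1 (0.0118). The call of Cox7a1 was lost with replicate 3 added (0.0729) and in limma voom (0.0856). That of Elovl3 was lost with a pseudocount of 0.1 (-0.036, adjusted p 0.973), with no filter (0.0503) and without some single libraries. In limma voom the sign of Elovl3 was reversed (0.999, adjusted p 0.551). On day 8 the call of Cox8b was lost in limma voom (0.0647).

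In BAT, the EGCG effect on day 8 minus that on day 4 was -5.30 for Cox7a1 (adjusted p 1.05e-08), -3.94 for Cox8b (1.79e-06), -3.44 for Cidea (2.33e-07), -2.53 for Ucp1 (1.67e-07), -2.15 for Dio2 (1.7e-06) and 1.75 for Elovl3 (0.000316). In WAT it was -2.03 for Cox7a1 (1.65e-05), -1.07 for Cox8b (0.0163) and -0.63 for Dio2 (0.0111). The calls of Elovl3 in BAT and of Cox8b and Dio2 in WAT were lost under some alternatives.

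The change from day 4 to day 8 in controls was larger in BAT than in WAT by 3.74 for Cox8b (adjusted p 1.04e-05), 3.33 for Cidea (1.85e-06), 2.88 for Cox7a1 (3.51e-06), 2.66 for Ucp1 (7.97e-07) and 0.62 for Dio2 (0.0156), and for Elovl3 the difference was -1.51 (0.00173). The call of Dio2 was lost without some single libraries. For Ucp1 and Cidea, which reached 1 FPKM in BAT day 8 controls alone, a difference in any contrast with that group was bound to arise.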

How the results depend on the processing

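There were 1344 values of single genes under the alternatives. Of these, 1287 kept their side of the threshold, 31 lost a call, 24 gained one and 2 were reversed. Reversed means a change of sign where at least 1 of the fits had a call. A change of sign with a call in neither fit was counted among the 1287. Both reversals were of Elovl3 with limma voom, where the difference of the EGCG effect was 0.999 between depots on day 4 (adjusted p 0.551) and -1.62 between days in BAT (0.366). With a pseudocount of 0.1 these were -0.036 and 0.68. The number of genes called between days in BAT with EGCG (1) became 2 with a pseudocount of 0.1, with both tables, with both tables without WAT day 8 EGCG replicate 3 and with voom, and ranged from 1 to 3 without 1 library. That between depots on day 4 with EGCG (2) became 1 with both tables, and 3 with a pseudocount of 0.1 or with both tables without WAT day 8 EGCG replicate 3 (1 to 4 without 1 library), and that between depots on day 8 with EGCG (2) ranged from 1 to 2. The number whose EGCG effect differed between depots on day 4 (2) became 1 with a pseudocount of 0.1, with no filter and with both tables, and 0 with voom (1 to 3 without 1 library). The replicate block and median-ratio scaling each left all 102 results of single genes on their side of the threshold, so the block moved none of these counts. A floor of 1 read instead of 3 raised the bounds for Ucp1 from 179-fold to 536-fold (EGCG in BAT on day 8) and from 160-fold to 479-fold (BAT against WAT, day 8 controls). At this depth no difference of Ucp1 within WAT on day 8 was detectable, and Elovl3 with EGCG rested on a few reads in WAT and in BAT on day 8.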
